A study of Homo sapiens with 10 samples.

Results

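Dense groups of MAML3 binding sites were described in the human neuroblastoma line SK-N-SH, an established cell line, from chromatin immunoprecipitation and sequencing (ChIP-seq). Peaks of the 4 MAML3 lists that shared at least 1 bp were merged into 10251 sites. Of these, 4138 sites were in 3 or 4 lists and were kept, and neighbouring kept sites were joined when no more than 12.5 kb lay between them. The members are the 318 kept sites in the 95 joined stretches of 3 or more sites. The other 3820 kept sites, of which 3058 stood alone and 762 were in runs of 2, served for comparison. The members were thus chosen by the presence and spacing of peaks in the MAML3 lists. For that reason their MAML3 values below are a description without a test. The RARα lists, which the choice did not use, carry the comparisons.

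All cells spent 24 hours in medium with charcoal-stripped serum before either 1 µM retinoic acid (RA) or vehicle alone (untreated, UT) was added. Each treatment has 2 samples with an antibody against MAML3 and 2 with an antibody against RARα, and nothing in the labels says that the 2 came from separate cultures. The MAML3 lists held 2222 and 6759 peaks (UT) and 7532 and 6230 peaks (RA), and the RARα lists 1321 and 251 (UT) and 1103 and 1064 (RA). By the index tags in their list names, both untreated MAML3 lists could stem from the same library, so presence in 3 lists need not mean 3 libraries. The list of RARα UT replicate 2 is by its name a merged one. The depth of sequencing was not known here, so the lack of a peak does not show the lack of binding.

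MAML3 is a mastermind-like coactivator, best known for joining the Notch intracellular domain and RBPJ on DNA, where it brings in histone acetyltransferases. RARα is a nuclear receptor for retinoic acid, which binds DNA as a partner of RXR, and retinoic acid drives neuroblastoma cells towards neuronal differentiation. Super-enhancers are long stretches of closely spaced enhancers that rank highest in coactivator or H3K27 acetylation signal, and in neuroblastoma they are known at genes of the transcription factors that set cell identity, such as HAND2. The files used here hold no histone mark and no signal track, so the likeness to super-enhancers could not be checked, and the groups are called dense MAML3 stretches.

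Most dense stretches were small. Of the 95, 72 held 3 members, 17 held 4, 5 held 5 and 1 held 9. The median span was 13.5 kb, and spans ran from 3.36 to 38.3 kb. Neighbouring members were a median of 4650 bp apart, so the member sites covered a median of 11.6% of the span (5.47 to 38.8%). A member site was a median of 500 bp wide, against 477 bp for the other kept sites. At the edge of the rule, the widest joined gaps were 12487, 12500 and 12500 bp and the narrowest gaps not joined were 12504, 12599 and 12650 bp. Of the 381 runs of 2, 72 had another kept site within 25 kb. The number of stretches rested on the lists that hold most sites. When sites in all 3 remaining lists were asked for, 84 stretches were found without MAML3 UT replicate 1, but 24 without UT replicate 2, 25 without RA replicate 1 and 31 without RA replicate 2, where the short list of UT replicate 1 must hold every site.

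**Figure D1:**
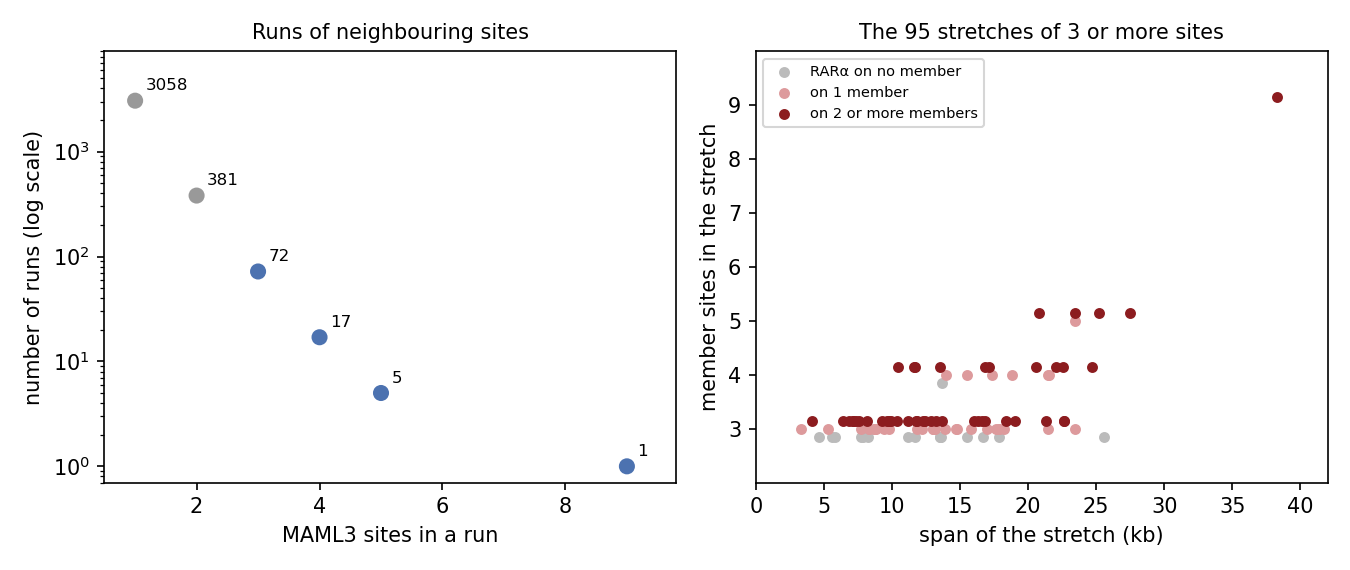
Left, number of runs (log scale) by the number of kept MAML3 sites in a run, with members of the dense stretches in blue. Right, member sites against span in kb for the 95 stretches, coloured by the number of members with a RARα peak in at least 1 list (points are shifted slightly up or down by colour). Most stretches hold 3 sites within 25 kb, and 1 stretch with 9 sites over 38.3 kb stands apart.

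Dense stretches were found on 21 chromosomes, with 12 on chromosome 5, 10 on chromosome 1 and 9 on chromosome 4, and none on chromosomes 16, 19 and Y. The share of kept sites that were members was 12.1% on chromosome 5, with 38 of 315, and lowest among chromosomes with a stretch on chromosome 6, where 4 of 266 kept sites were members. Chromosome 22 had the highest share, with 6 of only 23 kept sites. Of the 95 stretches, 14 lay within 100 kb of another one. The closest pair was on chromosome 11, where 22946 bp separated chr11:72019513-72037866 from chr11:72060813-72081412.

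A site in 3 or 4 lists is by the rule in at least 1 list of each treatment, so the members cannot be particular to a treatment. Of the 318, 171 (53.8%) were in all 4 MAML3 lists, against 1553 of the other kept sites (40.7%). MAML3 UT replicate 1, the short list, lacked 126 members, RA replicate 2 lacked 17, RA replicate 1 lacked 4, and UT replicate 2 lacked none. In 14 stretches every member was in all 4 lists, and in 11 no member was. Peaks were ranked within their list by the authors' score. The score percentile of a peak is its mid-rank in the list as a percentage, where tied peaks share a rank. A site takes the highest percentile of its peaks in a list, and its mean percentile covers only the lists that hold it. The median percentile of the members was 65.0 and 77.4 in the UT lists and 79.4 and 76.6 in the RA lists. The other kept sites had medians of 54.5 and 66.7 (UT) and 70.2 and 63.1 (RA), so the members ranked higher in each of the 4 lists. Sites in runs of 2 were close to the smaller stretches. The median of the mean percentile was 58.8 for single sites, 67.7 in runs of 2, 70.1 in stretches of 3 and 76.3 in stretches of 4 or more. A further 37 MAML3 sites, in 1 or 2 lists, lay inside the 95 spans, and of these 1 was in both RA lists and neither UT list and 3 were in both UT lists and neither RA list.

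The stretch with the most members was chr4:175114049-175152361, with 9 sites over 38.3 kb. The UT lists held 8 and 9 of its sites and the RA lists 8 and 7. Its first site, chr4:175114049-175114449, reached a MAML3 percentile of 93.8 and 98.7 in the UT lists and 99.1 in RA replicate 1, and was missing from RA replicate 2. The next site, 449 bp further, was at 99.3 in RA replicate 2 and missing from RA replicate 1. RARα peaks lay on 4 of the 9 sites in UT replicate 1, on 1 in RA replicate 1 and on none in the other lists. A second stretch of 4 sites, chr4:175057179-175078749, lay 35299 bp before it and had a RARα peak on 1 site in UT replicate 1 only. In both of these stretches most RARα peaks were in a single list, UT replicate 1.

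Gene names in this and the following paragraphs come from general knowledge of the human gene map and were not computed, because a gene annotation of the hg19 build was not used here; they give no distance and no target gene. The chromosome 4 pair lies between HAND2, a transcription factor of sympathetic neurons, and FBXO8.

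The stretch chr10:43465930-43487241 lies before RET, which encodes the receptor of glial cell line-derived neurotrophic factor and is a known retinoic acid response gene in neuroblastoma. It tied with the named stretches by its RARα peaks and was taken up after its values were seen. The stretch chr11:72060813-72081412 had the same tie, with RARα on 3 of its 4 members in UT replicate 1 and in each RA list. It was not taken up in this way, so the tie alone did not decide the choice of the chromosome 10 stretch. All 3 members of the chromosome 10 stretch were in all 4 MAML3 lists and carried a RARα peak in UT replicate 1, RA replicate 1 and RA replicate 2. The middle site, chr10:43476880-43477429, had MAML3 percentiles of 17.4 and 77.9 in the UT lists and 95.2 and 96.7 in the RA lists. Its RARα percentile was 63.2 in UT replicate 1 and 95.6 and 85.3 in the RA lists. Both antibodies ranked this site higher within each RA list than within each UT list that held it, a comparison of ranks within lists and not of levels, and the site was picked after its values were seen. The last member, chr10:43486780-43487241, did not share that order. Its MAML3 percentiles were 49.1 and 79.1 in the UT lists and 95.5 and 72.6 in the RA lists, and its RARα percentiles were 52.7 in UT replicate 1 and 82.8 and 39.3 in the RA lists.

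On chromosome 2, chr2:29472598-29497331 lies in ALK, the receptor tyrosine kinase gene mutated in familial neuroblastoma. Its 4 members were all in 4 MAML3 lists. The second, chr2:29485519-29486081, stood at MAML3 percentiles of 93.5 and 96.6 (UT) and 97.2 and 96.4 (RA) and carried RARα in UT replicate 1 and both RA lists. On chromosome 7, chr7:14705796-14727850 lies in DGKB, a diacylglycerol kinase gene. Its first site was at MAML3 percentiles of 98.6 and 99.9 (UT) and 99.9 and 99.9 (RA) and was in all 4 RARα lists, at percentiles of 98.1 and 43.2 (UT) and 93.7 and 96.8 (RA). The 5-site stretch chr12:71952160-71972929, in the stem cell receptor gene LGR5, had RARα in both RA lists and neither UT list on its middle site, chr12:71960410-71960965. Its second site, chr12:71956506-71956979, had RARα in UT replicate 1 (percentile 58.9) and in no RA list. The 4-site stretch chr10:72994730-73011541 lies in UNC5B, a netrin receptor gene, and chr5:153896649-153908348, also of 4 sites, lies next to HAND1, a relative of HAND2. Both were named after their values were seen, and in each 3 of the 4 members had a RARα peak in at least 1 list. The stretch with the highest mean MAML3 percentile (90.9) was chr14:89442372-89464994, with 3 sites of which 2 carried RARα.

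**Figure D2:**
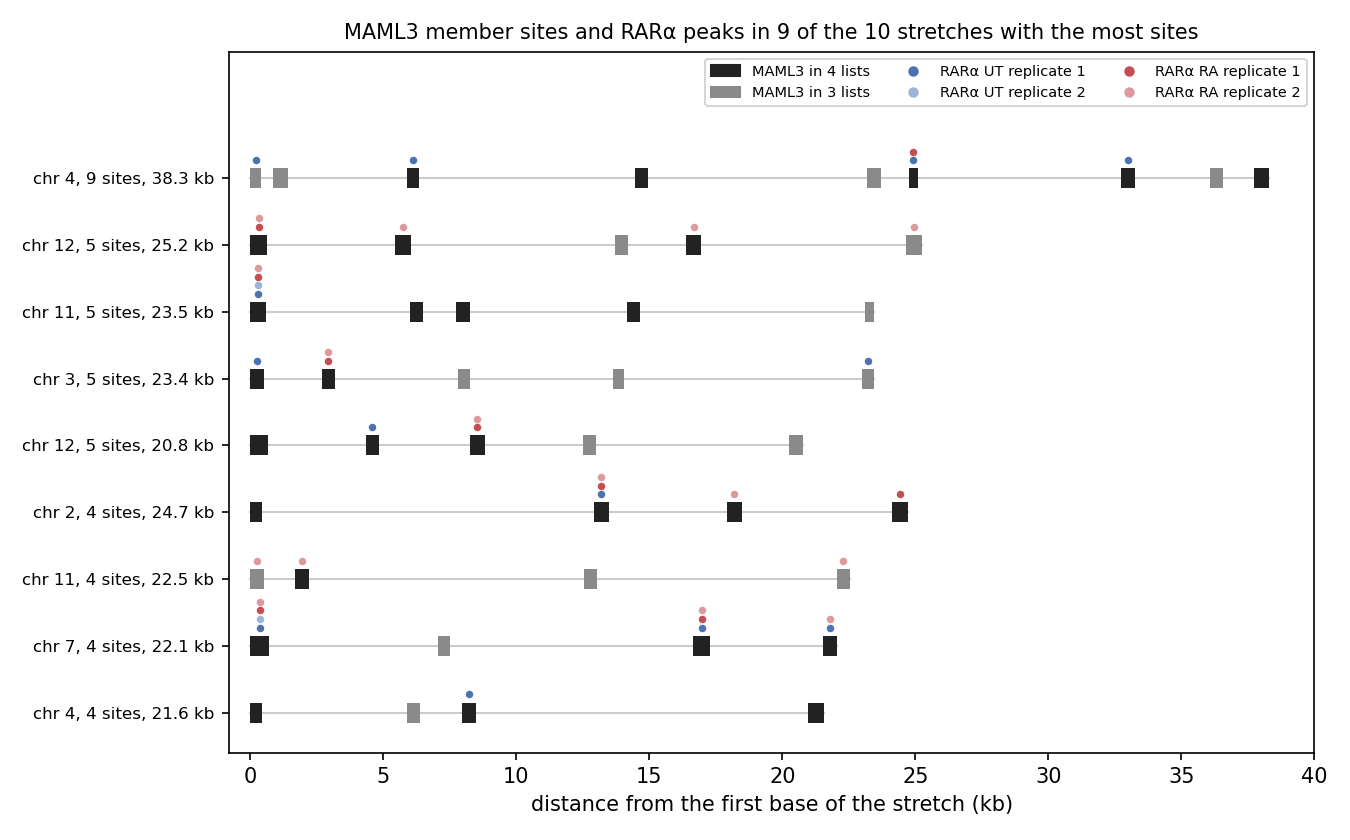
Member sites drawn to scale against the distance from the first base of the stretch (kb) in 9 of the 10 stretches with the most sites. Boxes are sites in 4 (black) or 3 (grey) MAML3 lists, and each dot above a box is 1 RARα list with a peak there. RARα falls on some members of each stretch, up to 4 of 5 on the 25.2 kb stretch of chromosome 12, and on 1 of 5 on the stretch of chromosome 11.

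RARα peaks were present in most of the dense stretches but on a minority of their sites in each list. RARα lay on 98 of the 318 members in UT replicate 1 (30.8%, 95% Wilson interval 26.0 to 36.1, where 24.3% of all kept sites had it) and on 13 in UT replicate 2 (4.09%, 2.40 to 6.87, against 3.6% of all kept sites). After RA it lay on 78 members in replicate 1 (24.5%, 20.1 to 29.5, against 17.4%) and on 90 in replicate 2 (28.3%, 23.6 to 33.5, against 18.3%). These intervals reflect counting error alone, as the sites within a list are no replicates. At least 1 RARα list held 142 members (44.7%, where 34.5% of all kept sites were so held), and 79 of the 95 stretches had such a site. A stretch counts here when any 1 of its 3 or more sites has RARα, so grouping alone raises the share of stretches. No share for like groups of other kept sites is given, so the stretch counts are a description only. RARα lay on 1 member in 34 stretches, on 2 in 29, on 3 in 14 and on 4 in 2, and 16 stretches had none. Every member carried RARα in 5 stretches. Nearly all RARα peaks inside the spans were on members, with 99 of 102, 14 of 16, 79 of 81 and 95 of 100 in the 4 lists. Overlap was common across the genome too. RARα lay on 1007, 149, 722 and 759 of all kept sites, from lists of 1321, 251, 1103 and 1064 peaks. The middle of the RARα peak was a median of 31, 59, 31.8 and 44 bp from the middle of the MAML3 site (UT 1, UT 2, RA 1 and RA 2).

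Members carried RARα more often than the other kept sites in all 4 lists. In UT replicate 2 this did not hold without the chromosome X array and the stretches at peak-free ranges, described below (3.25 against 3.51%). With all members included, the share was 30.8 against 23.8% in UT replicate 1 and 4.09 against 3.56% in UT replicate 2. It was 24.5 against 16.9% in RA replicate 1 and 28.3 against 17.5% in RA replicate 2. The mean difference was 6.50 percentage points ± 4.31 (SD, n = 4 lists), with an exact two-sided sign-flip permutation p of 0.125 over the lists, the smallest that 4 lists allow (0.208 after Benjamini-Hochberg adjustment over 5 such tests). The difference was thus not past 0.05, which this design cannot reach. Against runs of 2, the most similar sites, members were higher by 1.03, 0.0198, 2.35 and 5.34 points (mean 2.18 ± 2.31, SD, n = 4, exact permutation p = 0.125, adjusted p = 0.208). Stretches of 4 or more did not carry RARα more often than stretches of 3 beyond the spread between lists (mean difference 1.63 points ± 3.86, SD, higher in 1 of 4 lists, exact permutation p = 1).

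**Figure D3:**
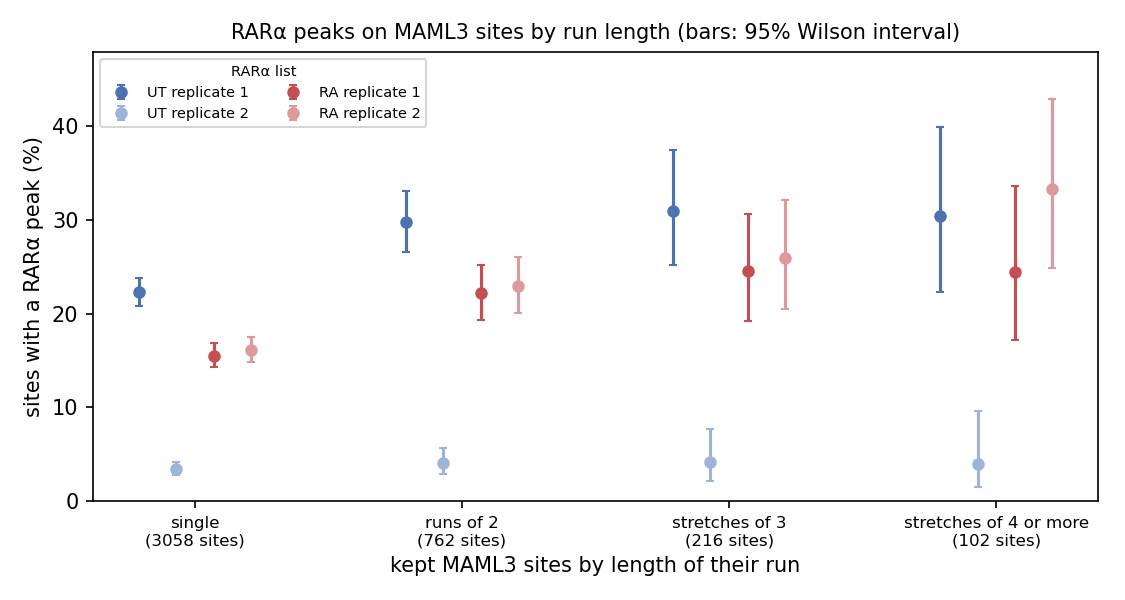
Percentage of kept MAML3 sites with a RARα peak in each of the 4 RARα lists, by the length of the run the site belongs to; bars are 95% Wilson intervals. Single sites have the lowest share in each list, and the intervals of runs of 2 and of both stretch classes overlap in each list.

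The excess of RARα was smaller among sites of like mean MAML3 percentile, though not in every score class. That mean covers only the lists that hold a site, and members were more often in all 4 lists (53.8 against 40.7%). Median percentiles were lowest in UT replicate 1, the short list, so a class need not hold sites of like score. When the other kept sites were weighted to the members' make-up of 4 score classes, the mean difference fell from 6.50 to 1.81 points, with 0.164 and -0.387 in the UT lists and 2.61 and 4.86 in the RA lists (exact permutation p = 0.375). The highest class held 37.4% of the members and 24.0% of the other kept sites. In that class RARα UT replicate 1 lay on 52.9% of the members and 54.4% of the others, and UT replicate 2 on 7.56 and 7.97%. RA replicate 1 lay on 46.2% of the members in it and 39.4% of the others, and RA replicate 2 on 50.4 and 45.4%, within overlapping intervals. In the lowest class, with 49 members, the members had the higher share in all 4 lists, at 12.2 against 6.09% and 6.12 against 1.32% in the UT lists and 10.2 against 4.56% and 6.12 against 3.65% in the RA lists. The 3 members of chrX:114987265-114999518, described below, are in this class and carried RARα in all 4 lists, and they are the only members of the class with RARα in UT replicate 2 or RA replicate 2. In the second class, with 56 members, they had the lower share in all 4 lists, at 7.14 against 12.7% and 0 against 2.15% (UT) and 5.36 against 7.77% and 0 against 7.16% (RA), where a count of 0 allows up to 5.36%. In the third class the differences went both ways, at 26.6 against 24.1% and 1.06 against 3.09% (UT) and 16.0 against 17.2% and 28.7 against 15.6% (RA). Without MAML3 RA replicate 2 the unweighted difference was 3.56 points, and with MAML3 lists of equal length 2.34 points, each higher in 2 of 4 lists.

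**Figure D4:**
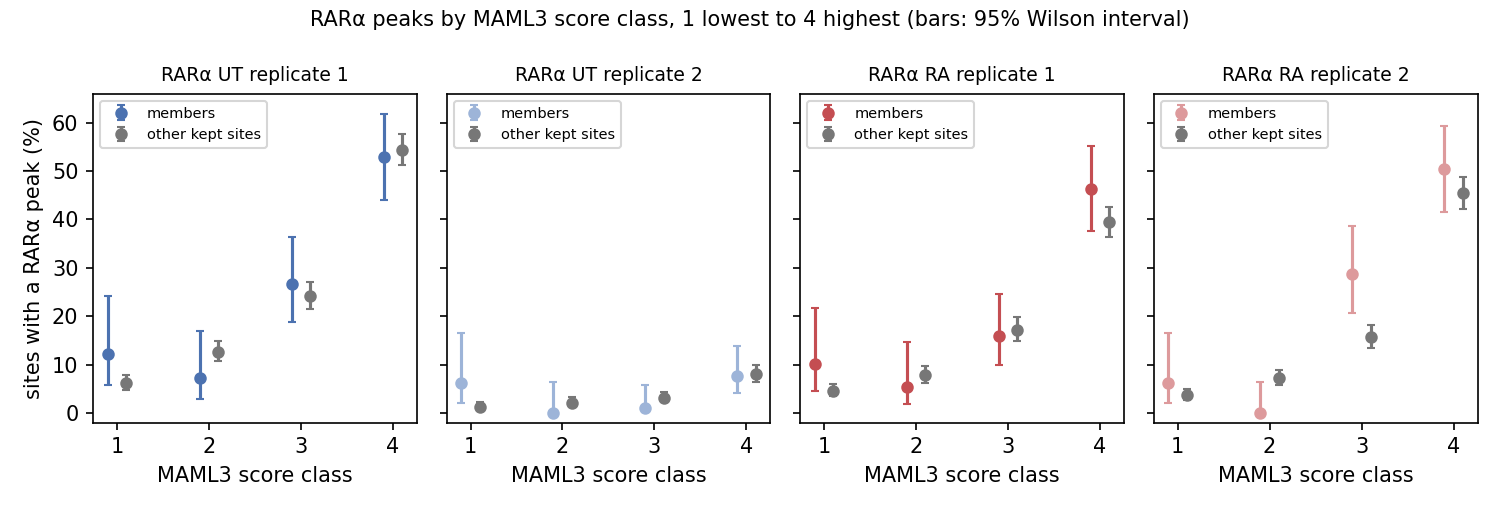
Percentage of sites with a RARα peak by class of mean MAML3 score percentile (1 lowest, 4 highest), for members (coloured) and other kept sites (grey), 1 panel per RARα list; bars are 95% Wilson intervals. The share of members rises from the second to the highest class in every list, to 52.9, 7.56, 46.2 and 50.4%. In the highest class the intervals of members and other kept sites overlap in every list.

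Within a stretch, RARα was most often on the member with the highest mean MAML3 percentile, taken over the lists that held it. RARα UT replicate 1 lay on 49 of the 95 highest ranked members (51.6%) and on 49 of the 223 others (22.0%). The shares were 9.47 against 1.79% in UT replicate 2, 45.3 against 15.7% in RA replicate 1 and 49.5 against 19.3% in RA replicate 2. The mean difference was 24.3 points ± 11.1 (SD, n = 4 lists, higher in 4 of 4), with the smallest exact sign-flip permutation p of 0.125 (adjusted p = 0.208). Position along the stretch showed no such order, as inner members differed from the first and last ones by -0.752 points ± 2.56 (SD, higher in 2 of 4 lists, exact permutation p = 0.5, adjusted p = 0.625). Of the 79 stretches with RARα, 64 had it on the highest ranked member in at least 1 list. In 34 of the 79 it lay on 1 member only. These 64 are 67.4% of the 95 highest ranked members, where 35.0% of the 223 others had RARα in at least 1 list. Among the other kept sites, outside the stretches, the share rose with MAML3 score class too. In their highest class it was 70.1% for at least 1 list, and 54.4, 7.97, 39.4 and 45.4% in the 4 lists. The order by score was thus not particular to the stretches.

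The RARα share at the members did not differ between treatments beyond the spread of the untreated lists. It averaged 26.4% ± 2.67 after RA and 17.5% ± 18.9 in untreated cells (SD, n = 2 each), with an exact two-sided permutation p of 1, where 2 lists against 2 cannot go below 0.333. Without RARα UT replicate 2, the list of 251 peaks, the difference of 8.96 points became -4.40. The share at the members divided by that at the other kept sites was 1.45 and 1.62 in the RA lists and 1.30 and 1.15 in the UT lists. These ratios did not overlap, and their exact permutation p was 0.333, the smallest possible.

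RARα in both RA lists lay on 59 members (18.6%, interval 14.7 to 23.2, where 10.3% of all kept sites had it) and in both UT lists on 11 (3.46%, where 3.07% of all kept sites had it). In both RA lists and neither UT list it lay on 13 members (4.09%, interval 2.40 to 6.87, against 1.81% of all kept sites). Sites in runs of 2 had 13.6% (11.4 to 16.3) in both RA lists and 2.10% (1.30 to 3.38) in both RA lists and neither UT list. Each of these intervals overlaps that of the members. RARα in both UT lists and neither RA list was found on 0 of 318 members, which allows a share of up to 0.943%, with 0.193% among all kept sites. These counts have no replicate and were not tested. RARα UT replicate 2 held 251 peaks and lay on 13 members in all, so no count that needs both UT lists could exceed 13. The RA lists held 1103 and 1064 peaks, so the counts of the 2 treatments are not on a like footing. The sites with RARα in both RA lists and neither UT list lay in 12 stretches. Only chr21:23179349-23191800, named after its values were seen, held 2 of them. Its first site, chr21:23179349-23180150, had a MAML3 percentile of 88.8 in UT replicate 2 and of 98.3 and 99.5 in the RA lists, was missing from MAML3 UT replicate 1, and had RARα percentiles of 59.0 and 64.8 in the RA lists. At stretch level, 12 stretches had RARα in 1 or both RA lists and in neither UT list, and 5 of these had it in both RA lists. In UT replicate 1 alone it was found in 9 stretches, and chr17:50101769-50119100 had it in UT replicate 2 alone. The stretch chr12:43356066-43381305 stood out among the named ones, with RARα on 4 of 5 members in RA replicate 2, on 1 in RA replicate 1 and on none in the UT lists. The stretch chr11:43925567-43948112 had RARα on 3 of 4 members in RA replicate 2 and in no other list.

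RARα in all 4 lists lay on 10 members, from 8 stretches (3.14%, where 2.27% of all kept sites had it). Besides the one on chromosome 7 given above, they included chr2:177439119-177439731, chr11:56911863-56912462, chr12:39789610-39790109, chr14:89464284-89464994 and chr17:59222219-59222877. The last lies in BCAS3, next to TBX2, a regulator of adrenergic neuroblastoma identity, and had RARα percentiles of 95.3 and 83.5 (UT) and 89.7 and 97.3 (RA). A further 3 were all members of chrX:114987265-114999518. They ranked low for MAML3, with mean percentiles of 39.0, 40.3 and 34.3, and among the highest for RARα, at 91.4 or above in each list. RARα peaks formed a regular array there, with 16, 16, 16 and 15 peaks spaced by medians of 2975, 2984.5, 2975 and 2975 bp. Whether the sequence there is repeated was not tested, so these peaks are not read as separate RARα sites. The stretch chr11:51582732-51589131, with RARα in both RA lists on 1 site, ended at the edge of a 5.03 Mb range without a peak in any list, and chr3:93818406-93833906 lay 90000 bp from such a range. Without these 3 stretches and the other array sites, 92 stretches and 308 members remained, 7 of them with RARα in all 4 lists. The mean difference from the other kept sites was then 5.80 points (higher in 3 of 4 lists, exact sign-flip permutation p = 0.25). In UT replicate 2 members (3.25%) were below the other kept sites (3.51%).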

How the data were processed

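The authors deposited 1 peak list per ChIP sample, which gives the position, the name and a score of each peak. BWA 0.5.9, MACS, bedtools and the hg19 build are named, without roles, in the submitters' processing notes. Peak thresholds and any use of an input are not given in the sources at hand, and the 2 input samples were not analysed here. The score that the authors deposited served only to rank peaks within a list, since read depth is unknown. Starts are counted from 1. The members and lists were chosen with earlier results of these data known. The labels gave each sample's group and replicate number.

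A site overlapped RARα when it shared 1 bp with a RARα peak. Shares have 95% Wilson intervals, and a count of 0 allows 3 counts. Differences were tested over lists with exact two-sided permutation tests in Python 3.11.15 (numpy 2.4.6, scipy 1.17.1), and the merging and joining steps were tested on simulated lists. The stretches named are the 10 with the most members, the 5 longest, the 5 with RARα on the most members and the 5 with the highest mean score percentile; ties in members went to the longer span, ties in RARα to the larger sum of RARα lists over the members, and what was still tied followed genome order. The text gives some of each, and 1 of them is not reported here. Motif and gene position counts, which need hg19 sequence and annotation, were not run, and no sequence is printed.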

Additional observations from a re-analysis of the deposited data

How the results depend on the processing

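The 95 stretches and 318 members became 33 and 103 with a joining gap of 5 kb, 165 and 584 with 25 kb, 25 and 79 for sites in all 4 lists, and 202 and 693 for sites in 2 or more lists. Stretches of 2 or more sites numbered 476 with 1080 members, and those of 4 or more 23 with 102. The 50% of peaks with the highest score gave 36 and 119, and MAML3 lists of equal length 22 and 74. With 1 MAML3 list left out the counts ran from 24 to 84 stretches and from 76 to 279 members. Merging by 50% overlap or within 1 kb kept both counts within 1.5 times. The excess of RARα at members over the other kept sites was above 0 in all 23 alternatives, from 1.81 to 8.49 points, and in every list run in 17 of them; no p could pass 0.05. The RA minus UT difference at the members turned to -4.40 points without RARα UT replicate 2 and ran up to 22.3 without RARα UT replicate 1. With the replicate number as a block (replicate block), its value stayed at 8.96 points, with -6.29 and 24.2 in the 2 pairs (exact sign-flip permutation p = 1), and the labels do not say that the number marks a shared culture. Leaving out the chromosome X array and the stretches at peak-free ranges was chosen after the data were seen. Unknown read depth limits all statements on absent peaks.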
